A study of Mus musculus with 12 samples.

Results

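Cytosolic ribosomal protein genes were examined in the master peak-list of accessible chromatin from mouse blood cells. Members were the peaks whose gene name began with Rpl or Rps and a digit, or was Rplp0, Rplp1, Rplp2 or Rpsa, with the Rps6k kinases left out. The rule found 260 of 84243 peaks (0.309%), under 82 of the 19040 gene names in the list. Of these names, 69 belonged to the 77 canonical ribosomal protein genes that the rule can match, 46 of the large and 31 of the small subunit, and they carried 227 peaks. The other 13 names, with 33 peaks, were paralogs, retrocopies, pseudogenes and 1 gene for a binding protein. Fau, which encodes a ribosomal protein fused to a ubiquitin-like domain, is not matched by the rule.

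The list came from ATAC-seq, in which a transposase cuts and tags open chromatin. Adult C57BL/6 wild-type mice, 8 to 12 weeks old and untreated, gave 6 cell types isolated by fluorescence-activated sorting, with 2 replicates of each: hematopoietic stem cells (HSCs), megakaryocyte progenitors (MkPs), erythroid progenitors (EPs), granulocyte/macrophages (GMs), B cells and T cells. The T cells were taken from thymus and all others from bone marrow, and the labels do not say whether the replicates came from separate mice. The 12 samples were merged into 1 list with no value per sample or cell type. A peak was therefore open enough to be called in at least 1 cell type, the depth behind it is unknown, no cell type could be checked against its markers, and no difference between cell types could be tested.

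The ribosome joins a small subunit, which reads the messenger RNA, to a large subunit, which forms the peptide bonds, and each ribosomal protein is made from its own gene on a different place in the genome. The genes are transcribed at high and matched levels in nearly all cells, and many of their messages begin with a run of pyrimidines that couples their translation to growth signals through mTOR. In blood, loss of 1 copy of some of these genes causes Diamond-Blackfan anaemia, a failure of red cell production.

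The pyrimidine run begins at the transcription start site (TSS), so it was looked for at the annotated TSS of each promoter. The count therefore depends on that TSS being placed to the base, and a run that starts a few bases away is missed. RefSeq promoter sequences, 250 bases before to 50 after the TSS, were at hand for 57 of the 77 canonical genes and for 16472 protein-coding genes in all. A pyrimidine start, meaning C at the TSS followed by at least 4 further pyrimidines, was present in 12 of the 57 (21.1%, 95% Wilson interval 12.5 to 33.3%) against 2.17% of all promoters. It was found in 6 of 34 large subunit and 6 of 23 small subunit promoters. None of 68 mitochondrial ribosomal protein promoters and none of 33 proteasome subunit promoters had it. Of 13 promoters of other translation genes known for such starts, 4 had it. These intervals cover counting error only. The 12 starts are shown because they carry this feature, on mm10 (GRCm38.p6) from RefSeq, from 10 bases before the TSS, 5′ to 3′ on the strand of the gene, with the pyrimidine run in capitals.
Rpl14, chr9:120571507-120571531, plus strand: ggccctctctCTTCTCgctgagcgc
Rpl15, chr14:18270972-18270996, minus strand: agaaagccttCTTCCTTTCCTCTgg
Rpl28, chr7:4792955-4792979, plus strand: tctcgtgtctCTCTTTCCgtctccg
Rpl35, chr2:39005117-39005141, minus strand: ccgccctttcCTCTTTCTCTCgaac
Rpl38, chr11:114668570-114668594, plus strand: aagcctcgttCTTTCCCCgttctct
Rplp2, chr7:141447641-141447665, plus strand: cagcgtcttcCTTTCgccgccggac
Rps10, chr17:27635230-27635254, minus strand: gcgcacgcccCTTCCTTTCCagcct
Rps15a, chr7:118116133-118116157, minus strand: tttctgccatCTTCCCTCgccggtg
Rps18, chr17:33955651-33955675, minus strand: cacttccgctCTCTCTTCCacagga
Rps21, chr2:180257369-180257393, plus strand: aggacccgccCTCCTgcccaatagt
Rps27, chr3:90213634-90213658, minus strand: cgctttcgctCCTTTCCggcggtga
Rps6, chr4:86857353-86857377, minus strand: gaagtcgggcCTCTTTTTCgtgacg
Counted from the annotated TSS on, the run was longest in Rpl15, with 13 bases, and shortest in Rplp2 and Rps21, with 5 bases each. Pyrimidines before the TSS were not counted, although in some genes, such as Rpl14 and Rpl35, the tract continued upstream. This order therefore depends on the annotated TSS. Allowing the start to lie within 5 bases of the annotated TSS raised the count to 26 of 57 (45.6%), against 19.0% of all promoters. Under that setting 16 of 68 mitochondrial ribosomal protein promoters (23.5%) and 6 of 33 proteasome promoters (18.2%) also had one, as did 6 of the 13 other translation genes. Among the genes added were Rpl12, Rpl13a, Rpl19, Rpl34, Rps24 and Rps26.

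Of 9 short motifs searched in the same windows, the one with the greatest ratio to all promoters was the CGCG element TCTCGCGA. It was held by 10 of the 57 promoters (17.5%, Wilson interval 9.82 to 29.4%) against 1.56% of all promoters, and by 1 of 68 mitochondrial ribosomal protein and 1 of 33 proteasome promoters. Among the 9748 protein-coding promoters that had a peak centred within 500 bp, 2.40% held it. Search on both strands gave 16 matches in the 10 genes, and 13 of the 16 were centred in the 100 bases before the TSS. With the window shortened to start 100 bases before the TSS, 9 of the 10 promoters kept a match. Over all protein-coding promoters, 193 of the 257 with the element kept it, so closeness to the TSS was not particular to these genes. In 5 genes (Rpl12, Rpl26, Rps19, Rps28 and Rps6) the letters continued into a palindrome, so that matches on the 2 strands overlapped at 1 place. The surroundings of the first match in each gene show how close the element sits to the TSS, again on mm10 and on the strand of the gene, with the matched letters in capitals.
Rpl12, chr2:32961648-32961677, plus strand: ggccagcggtTCTCGCGAGAgctgagcttt
Rpl26, chr11:68901530-68901559, plus strand: gctccgagacTCTCGCGAGAtctcgcggca
Rpl27a, chr7:109519164-109519193, plus strand: gcctgctaccTCGCGAGActtcgtgagctc
Rpl35, chr2:39005301-39005330, minus strand: gtgttgctcaTCGCGAGActcagtttcccc
Rpl7a, chr2:26910745-26910774, plus strand: gggcgcctgcTCTCGCGAtatctgcggcca
Rps15a, chr7:118116194-118116223, minus strand: gaccatgaagTCTCGCGAtagcgcttccgc
Rps19, chr7:24884555-24884584, plus strand: gtttagccgcTCTCGCGAgcactccgaaaT
Rps28, chr17:33824548-33824573, minus strand: ccgcgtgcggTCTCGCGAGAgcgaaa
Rps3a1, chr3:86142675-86142704, minus strand: ccagctagtgTCGCGAGAttcttaaagccg
Rps6, chr4:86857399-86857428, minus strand: cgccggctgtTCTCGCGAGAacttagagcg
The element lay 54 bases before the TSS in Rpl12, 52 in Rpl7a, 66 in Rps15a and 51 in Rps6. It began 1 base before the TSS in Rps28, and it was farthest away in Rpl35, at 189 bases. Rps3a1, Rpl26 and Rpl27a had it 26, 26 and 21 bases before the TSS. The positions in Rps19 were 27 and 8 bases before the TSS.

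The promoters of Rps19 and Rpl27a are given at greater length. Rps19 is shown as the gene mutated most often in Diamond-Blackfan anaemia and as the canonical gene with 2 separate CGCG elements in its window, and Rpl27a as the gene with the most motif families, 5 of 9. Both run from 130 bases before to 15 after the TSS, with every motif match in capitals.
Rps19, chr7:24884462-24884606, plus strand: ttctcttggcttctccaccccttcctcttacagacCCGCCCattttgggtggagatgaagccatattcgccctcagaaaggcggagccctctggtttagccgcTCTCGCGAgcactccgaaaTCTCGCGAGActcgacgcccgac
Rpl27a, chr7:109519065-109519209, plus strand: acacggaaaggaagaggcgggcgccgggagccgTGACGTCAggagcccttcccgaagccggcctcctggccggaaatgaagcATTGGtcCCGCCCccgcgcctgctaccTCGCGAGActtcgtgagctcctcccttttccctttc
In the Rpl27a stretch the capitals mark, in order, a cAMP response element (CRE) 97 bases before the TSS, a CCAAT box on the other strand, an SP/KLF match on the other strand and the CGCG element. In the Rps19 stretch they mark an SP/KLF match on the other strand and the CGCG elements. The ETS match of Rpl27a began 169 bases before the TSS, outside the stretch shown.

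ETS factors, a family with many members active in blood cells, were searched as CCGGAAG on both strands. The letters were present in 22 of 57 ribosomal protein promoters (38.6%, Wilson interval 27.1 to 51.6%) against 12.5% of all promoters and 19.2% of those with a promoter peak. The share was 36.8% in mitochondrial ribosomal protein promoters and 33.3% in proteasome promoters. Rpl11, Rpl31, Rpl38, Rps7, Rps26 and Rpsa were among the genes with a match. A pyrimidine start and an ETS match occurred together in 8 genes, an ETS match and the CGCG element in 5, and 27 of the 57 promoters had none of these 3 features.

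The other motifs were in fewer genes or at shares closer to those of all promoters. For each, the share among the 9748 protein-coding promoters with a promoter peak is given second. The CRE letters TGACGTCA were in 5 promoters (8.77%, Wilson interval 3.81 to 18.9%, against 2.48% and 3.51%), those of Rpl13, Rpl18, Rpl26, Rpl27a and Rps9, between 24 and 134 bases before the TSS. The NRF1 letters CATGCGC were in 7 (12.3%, against 5.16% and 7.51%), and the YY1 letters AAGATGGC in 4 (7.02%, against 3.38% and 4.86%), those of Rpl13a, Rpl35a, Rps15a and Rps27. YY1 letters were more frequent in mitochondrial ribosomal protein promoters, at 17.6%. The SP/KLF letters GGGCGG were in 35 (61.4%, against 49.2% and 68.1%). The CCAAT box was in 18 (31.6%, against 39.3% and 39.2%) and the E-box CACGTG, the letters read by MYC and its partners, in 5 (8.77%, against 8.16% and 10.6%). The E-boxes were in Rpl13a, Rpl14, Rpl19, Rpl23 and Rpl34, thus in 5 of 34 large subunit and 0 of 23 small subunit promoters. The Wilson interval of the small subunit share, 0 to 14.3%, includes the 8.16% of all promoters. The TATA box letters TATAAA, searched on the strand of the gene, were in 5 (8.77%, Wilson interval 3.81 to 18.9%, against 8.97% and 4.19%). In 4 of these (Rpl36a, Rplp0, Rps2 and Rps28) the letters began after the TSS, and in Rpl39 they began 96 bases before it. A match of letters is a description and not a bound site.

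**Figure D1:**
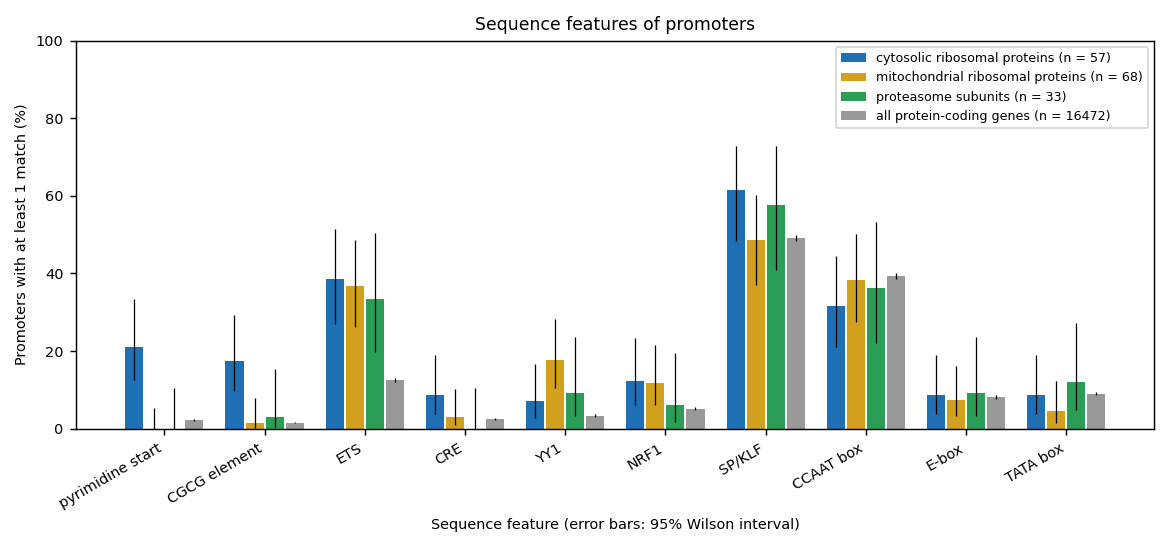
Share of promoters, in percent, with at least 1 match to a pyrimidine start or to each of 9 motifs, for 57 cytosolic ribosomal protein, 68 mitochondrial ribosomal protein, 33 proteasome and 16472 protein-coding promoters, with bars for the share and lines for 95% Wilson intervals. The pyrimidine start (21.1%) and the CGCG element (17.5%) stand above the other groups drawn in cytosolic ribosomal protein promoters. Other translation genes, not drawn, had a pyrimidine start in 4 of 13 promoters (30.8%) and the CGCG element in 0. ETS letters are at 33.3 to 38.6% in all 3 named groups.

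**Figure D2:**
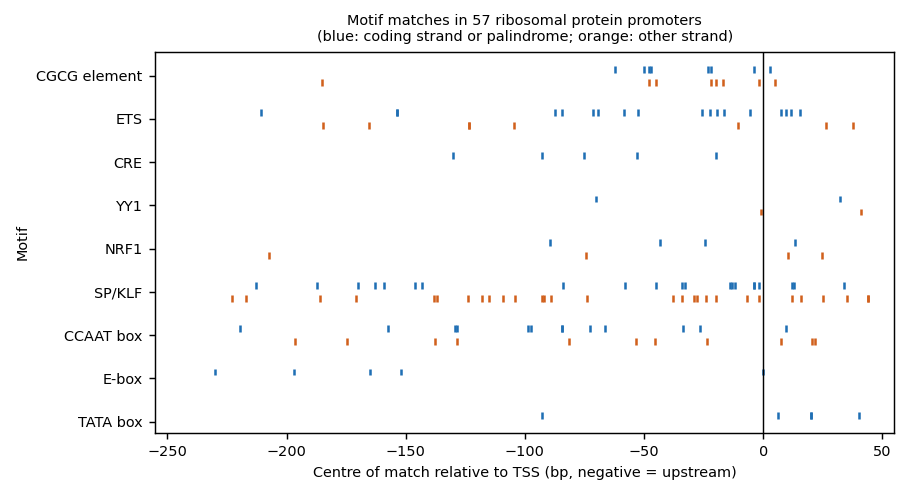
Centre of each motif match relative to the TSS, in bp, in the 57 ribosomal protein promoters. Matches on the strand of the gene are in blue and those on the other strand in orange. CRE and E-box letters, which read the same on both strands, are in blue. A CGCG palindrome is drawn once in each colour. Of 16 CGCG matches, in which a palindrome counts once on each strand, 13 are centred in the 100 bases before the TSS. This compares with 23 of 50 SP/KLF and 12 of 24 CCAAT matches. With the window shortened to start 100 bases before the TSS, 9 of 10 promoters kept the CGCG element. Among all protein-coding promoters with the element, 193 of 257 kept it.

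Nearly every canonical gene had an accessible promoter. With 1 RefSeq Select TSS per gene, 76 of 77 (98.7%) had a peak centred within 500 bp of it, against 58.9% of 20962 protein-coding genes. Mitochondrial ribosomal protein genes (76 of 78, 97.4%) and proteasome subunit genes (38 of 40, 95%) came close to the same share, and all 20 of the other translation genes had such a peak. The proteasome set was taken by gene name and so includes Psmc3ip, named for a partner of a subunit. In that set Psma8 and Psmb11 had no such peak. All 31 small subunit genes and 45 of 46 large subunit genes were included. The exception was Rpl7, whose nearest peak (chr1:16104728-16105226) was centred 544 bp upstream and was annotated by the list as a promoter of the neighbouring gene Rdh10. Its centre was thus just past the limit, and the next one inside it was that of Rpl4, at 480 bp upstream.

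The peak centre lay close to the TSS. Over the 76 genes, the median position was -23 bp, with quartiles of -88.5 and 31 bp, and over all protein-coding genes with such a peak it was -21 bp, with quartiles of -87 and 40 bp. The centre was within 100 bp in 55 of the 76 genes (72.4%, against 61.2%). This share was 76.3% in proteasome, 80% in other translation and 57.9% in mitochondrial ribosomal protein genes. Among the 76 canonical genes, the centre was upstream in 46 and downstream in 29, and in Rpl36a, on chromosome X, it coincided with the TSS. The median was -21 bp in large subunit and -33 bp in small subunit genes. After Rpl36a the nearest were Rpl21 (2 bp upstream) and Rpl5 (2 bp downstream). The farthest downstream under their own names, by the distance in the list, were the downstream peak of Rps23 (418 bp), Rps29 (121 bp) and Rpl22 (106 bp).

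Every peak was 499 bp wide, so that a centre more than 249 bp away left the TSS outside it. The peak overlapped the TSS in 72 of 77 genes (against 52.7% of protein-coding genes). Among genes with a peak centred within 500 bp, it was 72 of 76, against 11045 of 12347 protein-coding genes. Overlap was found in 70 of 78 mitochondrial ribosomal protein, 36 of 40 proteasome and 18 of 20 other translation genes. The 5 canonical genes without overlap were Rpl7, Rpl4 (480 bp), Rps19 (399 bp), Rps25 (354 bp) and Rps26 (320 bp). In all 5 the nearest peak was upstream. The Rps19 peak (chr7:24883944-24884442) ended 150 bp before the TSS used here, so that the Rps19 stretch printed above lies outside it. Only Rps23, a protein of the decoding centre, had 2 promoter peaks, centred 195 bp upstream (chr13:90922678-90923176) and 418 bp downstream, in its first intron (chr13:90923291-90923789).

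**Figure D3:**
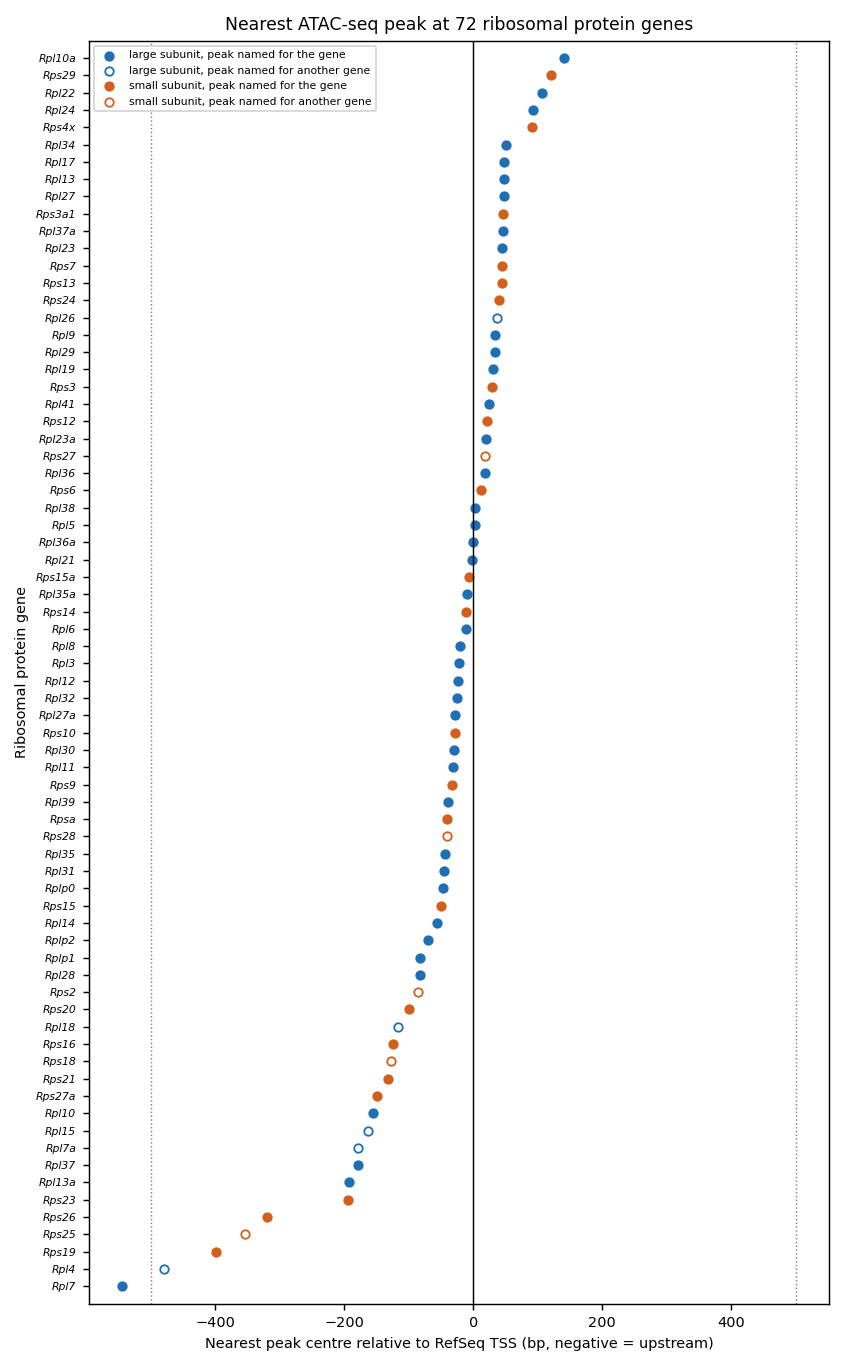
Distance in bp from the RefSeq TSS to the centre of the nearest peak for 72 of the 77 canonical genes, in order, with large subunit genes in blue, small subunit genes in orange and open circles where the peak carries the name of another gene. Most centres lie within 100 bp of the TSS, Rpl7 (544 bp upstream) alone lies past the dotted lines at 500 bp, and the 5 farthest are all upstream.

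The genes mutated in Diamond-Blackfan anaemia that are named here each had a promoter peak. By the RefSeq TSS, the centre was 399 bp upstream in Rps19 and 320 bp upstream in Rps26, and it was within 50 bp in the other members. It lay 10 bp upstream in Rpl35a, 29 bp in Rps10 and 32 bp in Rpl11. It lay 2 bp downstream in Rpl5, 40 bp in Rps24 and 44 bp in Rps7. Rps14, whose loss is tied to the anaemia of a deletion on a human chromosome arm, had its centre 12 bp upstream. Under their own names, Rpl5 had 8 distal peaks and Rpl11 had 7, whereas Rps7 and Rpl35a had 0. The others had 2 or 3 each. The span in which the TSS is the nearest was 59.0 kb for Rpl5 and 61.1 kb for Rpl11. It was 13.1 kb for Rps7 and 3.17 kb for Rpl35a.

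The proteins of the stalk and the laminin receptor also had peaks at the TSS. Rplp0, the stalk base, had its centre 47 bp upstream, and Rplp1 and Rplp2, the acidic stalk proteins that recruit elongation factors, 83 and 70 bp upstream. Rpsa, a small subunit protein also known as the laminin receptor, had it 41 bp upstream. Distal peaks differed among the 4: Rplp1 had 30, Rplp0 had 5, and Rplp2 and Rpsa had 0. The span in which the TSS is the nearest also differed. It was 287 kb for Rplp1, 29.3 kb for Rplp0, 5.58 kb for Rplp2 and 19.7 kb for Rpsa.

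By gene name alone the count was lower, at 67 promoter peaks for 66 genes, because in 10 genes the promoter peak carried the name of another gene. This was 13.2% of the 76, near the 11.0% of protein-coding genes with a promoter peak. It was 5.26% in proteasome and 26.3% in mitochondrial ribosomal protein genes. In 8 of the 10 the named gene starts on the opposite strand. These were Nkiras1 for Rpl15 (TSSs 150 bp apart), Sphk2 for Rpl18 (69 bp), Zwilch for Rpl4 (456 bp), Med22 for Rpl7a (165 bp), Vps52 for Rps18 (135 bp), Snhg9 for Rps2 (98 bp), Trappc4 for Rps25 (166 bp) and Ndufa7 for Rps28 (10 bp). The partners are of many kinds: Sphk2 makes sphingosine 1-phosphate, Med22 is a Mediator subunit, Ndufa7 belongs to respiratory complex I and Trappc4 to a vesicle tethering complex. For Rpl26 the name was Gm15772 and for Rps27 it was Rps27rt, which RefSeq places on chromosomes 5 and 9, although the peaks were on chromosomes 11 and 3. As a result 8 canonical genes had no peak under their own name (Rpl4, Rpl7a, Rpl15, Rpl18, Rps2, Rps18, Rps25 and Rps27).

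Over all 77 genes, 14 (18.2%) had the TSS of another gene head to head within 1000 bp, against 10.9% of protein-coding genes, 15% of proteasome genes and 38.5% of mitochondrial ribosomal protein genes. Rpl9 with Lias (66 bp), Rpl12 with Lrsam1 (71 bp) and Rpl35a with Iqcg (267 bp) were such pairs in which the peak kept the name of the ribosomal protein gene.

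The genes themselves were short, with a median length of 3175 bp against 17735 bp, and 30 of 77 (39.0%) held at least 1 small nucleolar RNA (snoRNA) gene, against 1.07% of protein-coding genes. Small nucleolar RNAs guide the modification of ribosomal RNA and are mostly cut from introns. The 30 genes held 58 snoRNAs, with 5 in Rpl4 and 4 each in Rpl7a and Rpl13a. Of the 20 other translation genes, 6 (30%) held one, as did 1 of 40 proteasome genes and none of 78 mitochondrial ribosomal protein genes. The sequence under the promoter peak had a median GC content of 60.1%, against 63.9% over all protein-coding genes with such a peak, and a median ratio of observed to predicted CpG of 0.885, against 0.797.

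Away from promoters, 160 peaks lay more than 500 bp from the TSS under 45 of the 77 names. The other 32 genes (41.6%) had none, against 35.7% of protein-coding genes. The median was 1 peak per gene in both, and the mean was 2.08 against 2.79. Of the large subunit genes, 24 of 46 had a distal peak, and of the small subunit genes 21 of 31. The distribution was uneven, since 16 genes had 1 peak and the 5 highest, Rplp1, Rpl34, Rpl31, Rps15a and Rpl5, held 66 of the 160.

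Rplp1, on chromosome 9, had 30 distal peaks (18.8% of the 160). Of these, 29 were intergenic and lay on the downstream side, from 7376 to 268758 bp away, and 1 was in an intron of Kif23, 10939 bp upstream. The downstream peaks fell into groups, with 12 within 100 kb and 17 between 132829 and 268758 bp. Rpl34 had 10, all intergenic and upstream, from 6688 to 170031 bp away. Rpl31 had 9, and none was in intergenic sequence: 7 lay in introns of Tbc1d8 and 2 in introns of Npas2, a circadian transcription factor. Rps15a had 9, of which 8 were intergenic and on the downstream side, up to 363373 bp away.

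Rpl5 had 8, and 7 of these lay in introns of Dipk1a, 21088 to 42609 bp downstream, whereas the other was in its own first intron, 633 bp from the TSS. Rplp0 had 5, all within 1 intron of Pxn, the gene of the focal adhesion protein paxillin, 15836 to 24343 bp upstream. Rps20 had 6, of which 2 lay in introns of Lyn, a Src family kinase of blood cells. Rpl11 had 7 and Rpl38 had 6, all of them intergenic and upstream. Rps29 had a second peak 550 bp upstream, just past the limit of 500 bp, besides the one 121 bp downstream.

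**Figure D4:**
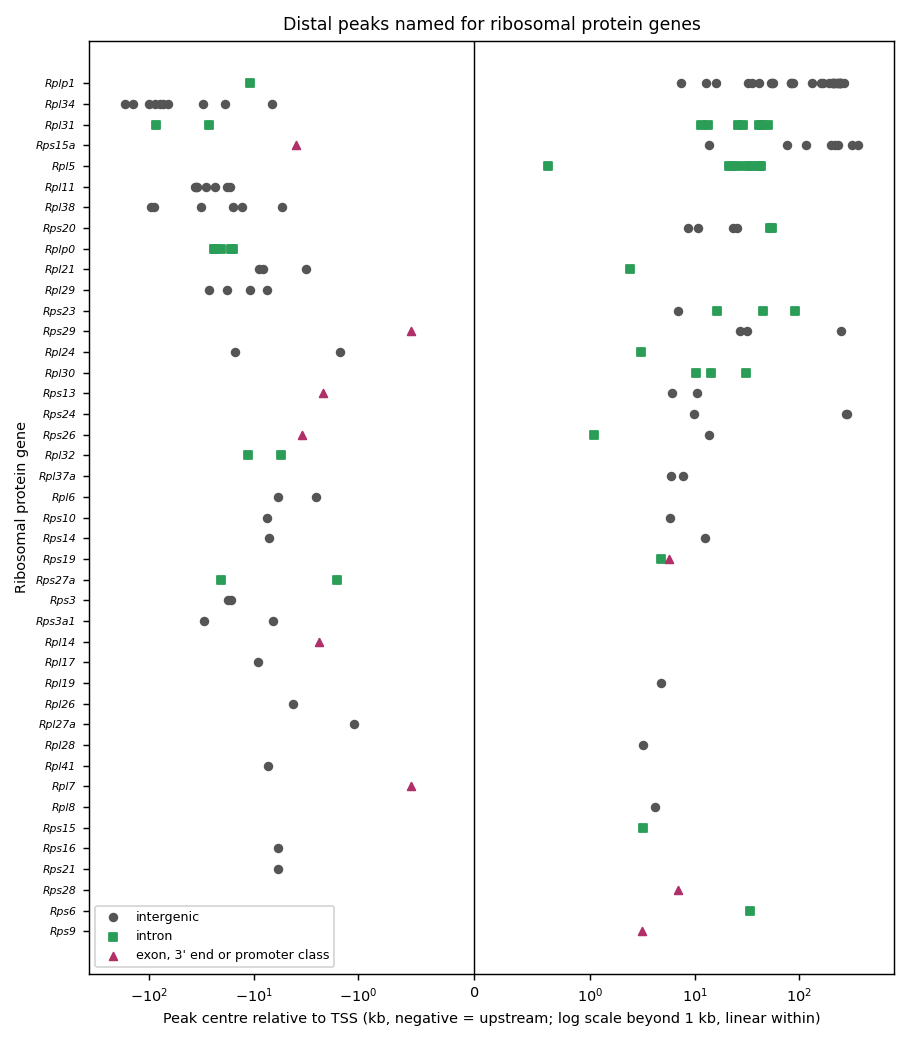
Position of 154 of the 160 distal peaks relative to the TSS of the gene it is named for, in kb on a scale that is logarithmic beyond 1 kb, with 1 line per gene for 42 of the 45 genes that have any and symbols for the annotation class. Rplp1 has 29 of its 30 peaks downstream, all 10 of Rpl34 are upstream, and those of Rpl31, Rpl5 and Rplp0 are in introns.

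By class, 107 of the 160 distal peaks were intergenic (66.9%, against 44.6% of all distal peaks) and 43 were in introns (26.9%, against 48.0%). Only 5 of the 43 were in an intron of the named gene (Rpl5, Rpl21, Rpl24, Rps19 and Rps26). In 37 it was an intron of another gene, and in 1, named for Rps15, RefSeq places the annotated transcript on another chromosome. Matn2 held 3 named for Rpl30, Atg10 held 3 named for Rps23, and Clhc1 and Efcab12 held 2 each. A name thus gives the nearest TSS and not a tested target. The rest were 5 at transcription ends, 3 in promoter class, 1 in an exon and 1 in a 3′ untranslated region.

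The distal peaks had a median distance of 22770 bp, against 22261 bp for all distal peaks. Within 10 kb lay 49 (30.6%, against 28.9%), and beyond 100 kb lay 29 (18.1%, against 13.0%). Rplp1 supplied 17 of the 29, and the direction turned without it. Of the 130 distal peaks of the other genes, 12 (9.23%) lay beyond 100 kb and 48 (36.9%) within 10 kb, with a median of 16400 bp. The intergenic share without Rplp1 was 60% and the intron share 32.3%. On repeats lay 36 of the 160 (22.5%, against 17.9%), of which 11 were B2 SINEs and 8 ERVL-MaLR elements.

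The span in which the TSS of a canonical gene is the nearest of all protein-coding genes had a median of 19.5 kb, against 49.5 kb. In these spans there were 4.12 distal peaks per 100 kb, against 2.73 over all protein-coding genes, 3.97 for proteasome and 2.81 for mitochondrial ribosomal protein genes. The value was 7.23 for large subunit and 2.19 for small subunit genes, and without Rplp1 it was 3.74 for all canonical genes and 6.68 for the large subunit. These values divide summed peaks by summed spans, so the widest spans weigh most. The count per gene, not divided by the span, had a median of 1 distal peak by position in large and 2 in small subunit genes. The median span was 16.8 kb in large and 27.6 kb in small subunit genes. Rps29 had the widest span among the small subunit genes, 973 kb, with 4 distal peaks by position. Rpl38 had 16 distal peaks by position in 304 kb, compared with 6 under its name.

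**Figure D5:**
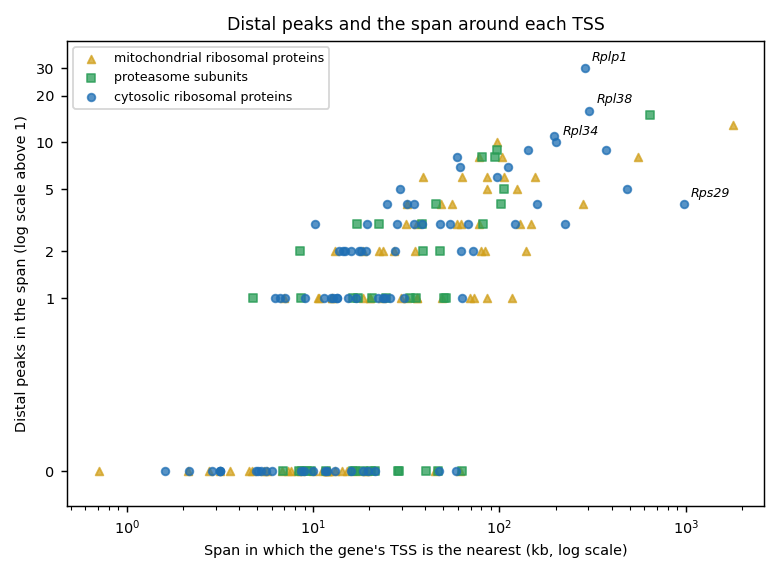
Number of distal peaks in the span where the TSS of a gene is the nearest, against the length of that span in kb (logarithmic axis), for cytosolic ribosomal protein, mitochondrial ribosomal protein and proteasome genes, with 1 point per gene. Rplp1 has 30 peaks in 287 kb and Rps29 4 peaks in 973 kb, and most genes with spans under 10 kb have 0 or 1.

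The other 13 names divided by kind. Of the 9 annotated as protein-coding, 7 had a promoter peak. Rpl22l1, the paralog of Rpl22, had it 5 bp upstream, Rpl36al 14 bp upstream and Rps27l, a paralog of Rps27 induced by p53, 13 bp downstream. Rps19bp1, which encodes a protein that binds Rps19, had it 93 bp upstream and Rpl7l1 276 bp upstream. The Rpl37rt peak, 174 bp downstream, lay on a B3A element of the B2 SINE class, and the Rps27rt peak was that of Rps27. Rpl10l, a testis paralog of Rpl10, had no promoter peak, and its 2 peaks were 191769 bp downstream and 391343 bp upstream. The 3 peaks of Rpl32l were in introns of Map7.

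The 4 pseudogene names (Rpl14-ps1, Rps15a-ps4, Rps15a-ps6 and Rps4l) had 12 peaks and no promoter peak, and 10 of the 12 lay in introns of other genes. All 6 peaks of Rps15a-ps6 were in 1 intron of Nudcd3 and all 3 of Rps4l in 1 intron of Tmtc1. Rpl3l, the muscle paralog of Rpl3, and Rpl39l had no peak under their names, and the peaks nearest to their TSSs were 3433 bp upstream and 22.8 kb downstream. The promoters of the canonical Rpl3, Rpl10 and Rpl39 had peaks centred 22, 155 and 39 bp upstream.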

How the data were processed

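The only table used was the master peak-list that the authors deposited. They aligned ATAC-seq reads to mm10 with the ENCODE pipeline, leaving out multimapping reads, took the reproducible peaks of each cell type, and reduced the joined lists to non-overlapping peaks with chromVAR. HOMER (4.10.2 in the submitters' processing notes) gave gene names, classes and distances. The deposited score was 0 in each of the 84243 peaks and was not used. Positions and distances are in bp, with no normalization, and 0 columns held values per sample.

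A limit of 500 bp between peak centre and TSS separated promoter from distal peaks. Distances were computed again from 1 RefSeq Select TSS per protein-coding gene (GRCm38.p6), and 61 of 66 own-name distances differed from the list by at most 2 bp. Motifs were exact letters in RefSeq promoter sequences, and the CGCG element was listed as ZBTB33-like. Promoter sequences were not used here for 20 canonical genes, among them Rpl3, Rpl7, Rpl8, Rpl17, Rpl21, Rpl23a, Rpl29, Rpl30, Rpl32, Rpl36, Rplp1, Rps14, Rps20, Rps27a and Rps29. Some members enter the counts but are not reported by name here. Counting was tested on simulated data. Python 3.11.15, numpy 2.4.6, pandas 2.3.3 and matplotlib 3.10.9 were used. No statistical test was made.

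The members and lists were chosen with earlier results of these data known. Named were canonical genes without a promoter peak or with more than 1, the 5 with the most distal peaks, the 3 centres nearest and farthest on each side, the anaemia genes, Rpsa, the stalk proteins and every other name matched. Further genes in the text were chosen after their values were seen. Alternatives were other distance limits, the RefSeq TSS, other windows for motifs and a looser pyrimidine start.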

Additional observations from a re-analysis of the deposited data

How the results depend on the processing

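The 67 promoter peaks became 52 with a limit of 100 bp and 71 with 1000 bp, and the 66 genes with one became 72 by overlap with the RefSeq TSS, 76 by position and 73 with every name matched. The 160 distal peaks became 137 beyond 5000 bp, 210 by the nearest protein-coding gene, and 130 without Rplp1, a choice made after seeing the data. The median promoter position was -13 bp by own name and -17 bp with 1 peak per gene. The share with a pyrimidine start moved from 21.1% to 45.6% when the start could lie within 5 bases, and that of all promoters from 2.17% to 19.0%. The motif window was also changed to 100 bases before the TSS and to the whole peak. SP/KLF letters moved from 61.4% to 47.4% and 77.2%, against 41.3% of all promoters and 79.2% of those with a promoter peak. E-boxes moved from 8.77% to 1.75% and 19.3%, against 4.97% and 14.4%. The other motif shares stayed within the Wilson interval of their first value. No paired analysis was possible because the list holds no values per sample, and leaving out a replicate and a stricter score threshold could not be run for the same reason and because the score was 0 throughout. Peaks missing because reads mapped to several places, and the depth that limits detection, were not tested.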
